A study of Mus musculus with 6 samples.

Results

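The 10 genes described here encode cytochromes P450 of the mouse Cyp4 family. They are the Cyp4a, Cyp4f and Cyp4v genes Cyp4a10, Cyp4a12a, Cyp4a12b, Cyp4a14, Cyp4a31, Cyp4a32, Cyp4f13, Cyp4f14, Cyp4f15 and Cyp4v3. They were chosen by symbol from a table of 22183 gene symbols, with the counts and fold changes of the 6 libraries already known, and all 10 passed the filter on low counts that left 14681 genes. Levels and fold changes of the 10 genes are therefore given as a description, with SD or SE and without a p-value.

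Mouse liver RNA was sequenced as 3 samples labelled DOX and 3 labelled PBS. All 6 samples carried the genotype label BucheKI/KI-Hep and all 6 had received DDC, so the PBS livers share the knock-in and the DDC exposure with the DOX livers. The series design speaks of BUCHE (butyrylcholinesterase, gene Bche) overexpressed in hepatocytes, and its title names hepatic stellate cell activation and muscarinic signalling. The labels expand neither DOX, DDC nor the sample prefix S2W, and they give no age, sex, strain, promoter or Cre line, nor the number of animals behind a sample. An effect of the DOX agent and an effect of raised Bche cannot be told apart in this design. The labels do not state that the 3 samples of a group are separate animals, so p-values reflect the spread among these libraries alone, part of which may be technical.

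Cyp4 enzymes sit in the endoplasmic reticulum and hydroxylate fatty acids at the terminal, or omega, carbon. The hydroxy acid is oxidised further by alcohol and aldehyde dehydrogenases to a dicarboxylic acid, which is activated to its CoA ester and shortened in peroxisomes. In rodent liver the Cyp4a genes are classical targets of PPAR-alpha, the nuclear receptor that responds to fatty acids and fibrates, whereas Cyp4f enzymes are best known for hydroxylating leukotrienes and other eicosanoids. Some Cyp4a genes also differ between male and female mice.

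The libraries held 32476725 to 41921404 counts. A quasi-likelihood fit in edgeR, with Benjamini-Hochberg adjustment over the 14681 tested genes and a threshold of 0.05, called 1975 genes (13.5%) higher and 2062 (14.0%) lower in DOX livers. Adjusted p-values below are from this fit. Bche averaged 1856 ± 87.7 CPM (counts adjusted for library size) in DOX livers and 187 ± 16.5 CPM in PBS livers (SD, n = 3 each; log2 fold change 3.31, SE 0.14, adjusted p = 1.65e-07). Ddx3y, a Y-linked gene, had 2460 to 3123 counts in DOX libraries and 3173 to 3668 in PBS libraries, while Xist, which is transcribed from the inactive X, had at most 2 and 4 counts. Every library thus carried Y-linked transcripts.

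Of the 10 Cyp4 genes, 4 neighbouring Cyp4a genes stood far lower in DOX livers, with log2 fold changes of -3.69 for Cyp4a14, -3.07 for Cyp4a31, -2.73 for Cyp4a10 and -2.15 for Cyp4a32. Cyp4v3, Cyp4f14 and Cyp4f15 lay within 1.33-fold of their PBS level on the lower side. Cyp4a12b and Cyp4f13 lay higher, and Cyp4a12a had a log2 fold change of -0.15 with an SE of 0.77. The same fit called 5 of the 10 lower (Cyp4a10, Cyp4a14, Cyp4a31, Cyp4a32 and Cyp4v3) and 1 higher (Cyp4f13), beside 27.5% of all tested genes called in either direction. Called lower were 3 genes without PBS 2, without PBS 3 or without DOX 1, and called higher was none without PBS 1, DOX 1 or DOX 3. On the normalised CPM scale 7 of the 10 genes had groups that did not overlap, of which 5 were lower and 2 higher, beside 44.1% of all tested genes (22.3% lower and 21.8% higher). Since the choice of genes used this contrast, no inference is drawn from these counts. The median log2 fold change of the 10 genes was -0.35, against -0.01 over all tested genes.

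**Figure D1:**
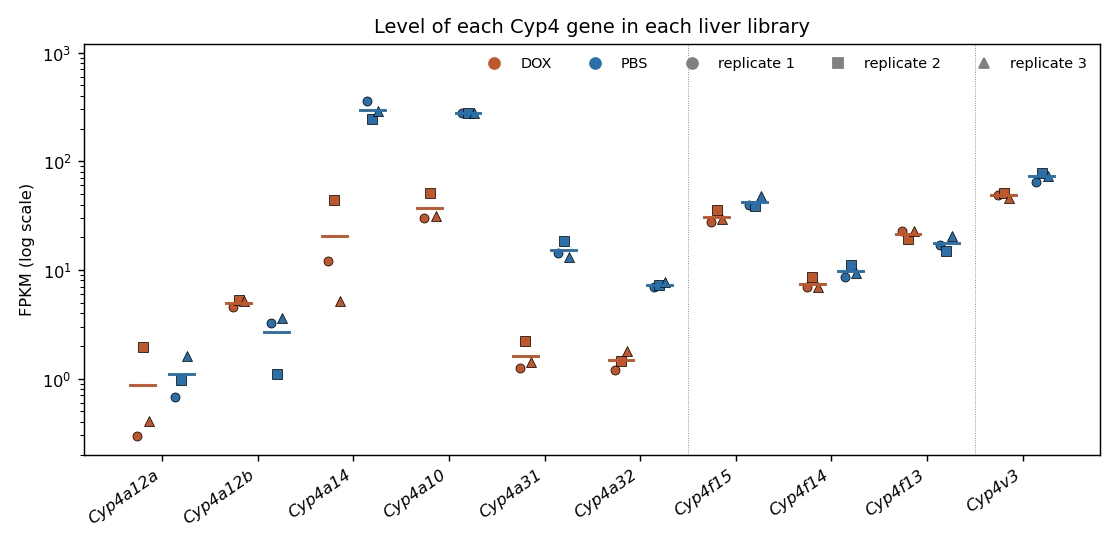
Level of each of the 10 Cyp4 genes in each library, as FPKM (fragments scaled to gene length and to the library total) on a log axis, with DOX libraries left of PBS libraries, a marker shape for each replicate number and a bar at the group mean. Cyp4a14, Cyp4a10, Cyp4a31 and Cyp4a32 lie well below their PBS level in all 3 DOX libraries, and Cyp4a14 has the widest DOX spread of those 4, from 5.23 to 43.9 FPKM.

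Some of the Cyp4a genes are near copies of each other, and the opening of the coding sequence shows how unevenly the 6 differ. The first 60 coding bases are printed 5′ to 3′ from the GENCODE M21 transcripts (GRCm38, chromosome 4), and capitals mark bases that differ from Cyp4a10.
Cyp4a10: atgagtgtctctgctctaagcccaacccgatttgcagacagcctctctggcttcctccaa
Cyp4a32: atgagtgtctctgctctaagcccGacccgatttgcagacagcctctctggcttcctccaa
Cyp4a31: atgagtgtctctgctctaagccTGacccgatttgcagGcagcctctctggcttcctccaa
Cyp4a12a: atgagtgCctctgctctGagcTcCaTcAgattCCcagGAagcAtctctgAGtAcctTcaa
Cyp4a12b: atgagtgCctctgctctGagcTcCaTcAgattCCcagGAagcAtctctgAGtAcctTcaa
Cyp4a14: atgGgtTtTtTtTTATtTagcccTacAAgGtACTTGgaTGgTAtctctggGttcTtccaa
Cyp4a32 differed from Cyp4a10 at 1 of these bases, Cyp4a31 at 3, Cyp4a12a and Cyp4a12b at 15 and Cyp4a14 at 24. Over the whole coding sequence, identity was 97.2% between Cyp4a10 and Cyp4a32, 96.6% between Cyp4a10 and Cyp4a31, and 98.5% between Cyp4a12a and Cyp4a12b. Cyp4a14 shared 76.8% with Cyp4a10. Cyp4v3 shared 58.0 to 60.4% with the other 9 genes.

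How reads that match several genes were counted is not given in the sources used here. Exposure to shared reads was therefore measured on the longest protein-coding transcript of each gene. At a window length of 100 bases, 35.8% of the windows of Cyp4a12a and 36.2% of those of Cyp4a12b occurred in the other gene. The share was 20.1% for Cyp4a32, 12.7% for Cyp4a10 and 8.22% for Cyp4a31. No window of 100 bases in Cyp4a14, Cyp4f13, Cyp4f14 or Cyp4f15 occurred elsewhere, whereas 5.77% of those of Cyp4v3 also lay in the predicted gene Gm45753. The split of counts between Cyp4a12a and Cyp4a12b, and among Cyp4a10, Cyp4a31 and Cyp4a32, is therefore uncertain. For Cyp4a14 the transcript examined has 2496 bases, against a gene length of 3309 implied by the deposited FPKM. For Cyp4f14 these lengths were 2221 and 4156 bases. Part of the counted sequence of both genes was thus not examined for shared windows.

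**Figure D2:**
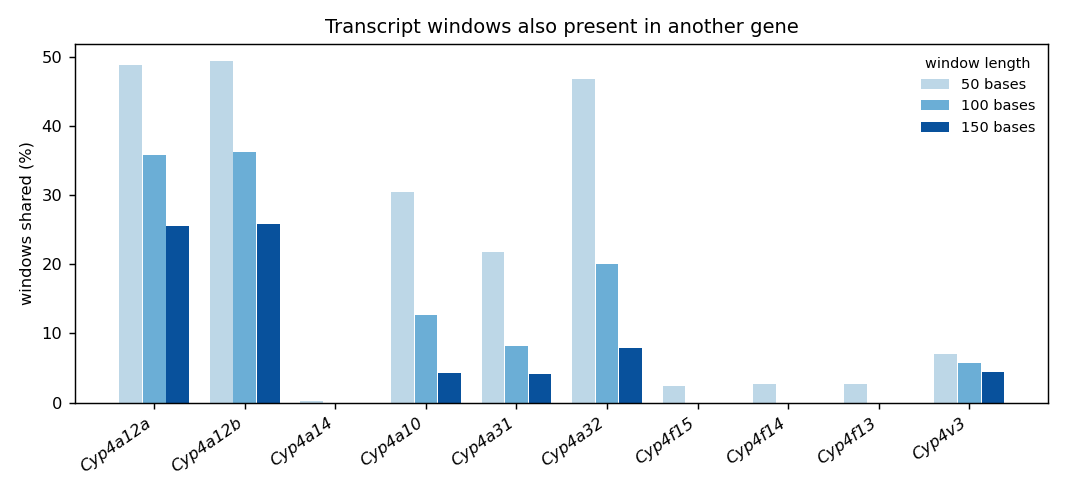
Percent of windows of 50, 100 and 150 bases that also occur in a transcript of another gene. Windows were taken from the longest protein-coding transcript of each of the 10 Cyp4 genes. Cyp4a12a, Cyp4a12b and Cyp4a32 share the most, and Cyp4a14 shares 0.245% of windows of 50 bases.

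Cyp4a14 and Cyp4a10, which hydroxylate lauric and other medium-chain fatty acids and are strongly induced by fibrates in mouse liver, were the most abundant of the 10 genes in PBS livers. Cyp4a14 (chr4:115486200-115496158, GRCm38.p6) had 12.2, 43.9 and 5.23 FPKM in DOX 1 to 3, against 357, 244 and 293 FPKM in PBS 1 to 3. Every DOX library lay below every PBS library, and DOX 2 stood above the other DOX libraries. The log2 fold change was -3.69 (SE 0.94), a 12.9-fold lower level, and it was -4.92 without DOX 2. Within the DOX group the highest library was 8.4 times the lowest, and the SD of log2 CPM, 1.57, was above that of 99.8% of tested genes.

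Cyp4a10 (chr4:115518287-115533649) had 29.9, 51.2 and 31.4 FPKM in DOX 1 to 3, against 278, 278 and 277 FPKM in PBS 1 to 3. The PBS libraries were nearly identical, with an SD of log2 CPM of 0.04 that only 6.78% of tested genes fell below. DOX 2 again stood highest of the DOX libraries, and the groups were far apart. The log2 fold change was -2.73 (SE 0.20), or 6.62-fold lower in DOX livers.

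Cyp4a31 and Cyp4a32 are the less studied neighbours of Cyp4a10. Cyp4a31 (chr4:115563627-115579015) had 1.25, 2.23 and 1.41 FPKM in DOX 1 to 3, against 14.4, 18.3 and 13.3 FPKM in PBS 1 to 3, a log2 fold change of -3.07 (SE 0.21). Cyp4a32 (chr4:115600927-115622507) had 1.19, 1.46 and 1.80 FPKM in DOX 1 to 3, against 6.95, 7.27 and 7.74 FPKM in PBS 1 to 3, a log2 fold change of -2.15 (SE 0.17). For both genes all DOX libraries lay below all PBS libraries. DOX 2 was highest for Cyp4a31 and DOX 3 for Cyp4a32. Cyp4a31 amounted to 0.042, 0.0435 and 0.0449 of the Cyp4a10 level in DOX 1 to 3, against 0.0519, 0.066 and 0.0481 in PBS 1 to 3. Cyp4a32 amounted to 0.0398, 0.0286 and 0.0573 of it in DOX 1 to 3, against 0.025, 0.0262 and 0.028 in PBS 1 to 3, so these near copies did not keep a fixed ratio to Cyp4a10 across libraries.

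Cyp4a12a and Cyp4a12b were expressed at a low level. Cyp4a12a is the male-biased mouse enzyme that converts arachidonic acid to its vasoactive omega-hydroxy product, and Cyp4a12b is its near copy. Cyp4a12a (chr4:115299046-115332815) had 0.297, 1.94 and 0.407 FPKM in DOX 1 to 3, against 0.681, 0.976 and 1.62 FPKM in PBS 1 to 3. The groups overlapped, and DOX 2 held the highest value, from 171 counts against 29 and 32 in DOX 1 and DOX 3. The log2 fold change was -0.15 (SE 0.77). It was -1.49 without DOX 2, 0.28 without PBS 3, 0.27 without DOX 1 and 0.19 without DOX 3, so its sign rested on single libraries. Cyp4a12b (chr4:115411624-115439034) had 4.54, 5.27 and 5.18 FPKM in DOX 1 to 3, against 3.26, 1.11 and 3.61 FPKM in PBS 1 to 3. The lowest DOX library exceeded the highest PBS library, and PBS 2 stood apart at the bottom. The log2 fold change was 1.06 (SE 0.40), and the fit did not call it.

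Of the 3 Cyp4f genes described here, Cyp4f14 and Cyp4f15 differed little. Cyp4f14 is the best studied mouse leukotriene hydroxylase of the 3, and Cyp4f13 and Cyp4f15 are its neighbours on chromosome 17. Cyp4f15 (chr17:32685631-32703352) had 27.5, 35.5 and 29.6 FPKM in DOX 1 to 3, against 39.8, 38.4 and 47.5 FPKM in PBS 1 to 3. Cyp4f14 (chr17:32903357-32917376) had 6.94, 8.61 and 6.91 FPKM in DOX 1 to 3, against 8.70, 11.2 and 9.40 FPKM in PBS 1 to 3. For both genes the DOX libraries lay below the PBS libraries in FPKM, but the groups overlapped in CPM scaled by TMM factors, which correct for composition. In CPM, Cyp4f15 had 63.5, 82.4 and 66.2 in DOX 1 to 3, against 80.6, 77.0 and 101 in PBS 1 to 3, and Cyp4f14 had 30.8, 38.4 and 29.6 in DOX 1 to 3, against 33.8, 42.9 and 38.4 in PBS 1 to 3. The log2 fold changes on that scale were -0.29 (SE 0.13) for Cyp4f15 and -0.22 (SE 0.13) for Cyp4f14, and neither was called.

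Cyp4f13 (chr17:32924688-32947415) went the other way. It had 22.6, 19.2 and 22.7 FPKM in DOX 1 to 3, against 16.9, 15.1 and 20.6 FPKM in PBS 1 to 3, and the groups overlapped in FPKM. In CPM it had 47.4, 40.4 and 45.9 in DOX 1 to 3, against 31.1, 27.5 and 39.8 in PBS 1 to 3, which did not overlap by a margin of less than 1 CPM. The log2 fold change was 0.44 (SE 0.14), or 1.36-fold. Coding identity was 78.4% between Cyp4f13 and Cyp4f14 and 82.2% between Cyp4f14 and Cyp4f15.

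Cyp4v3 (chr8:45305801-45333163) is the mouse counterpart of the human gene mutated in Bietti crystalline dystrophy of the retina, and its product hydroxylates medium-chain and polyunsaturated fatty acids. It had 48.8, 51.6 and 46.3 FPKM in DOX 1 to 3, against 65.1, 78.3 and 73.9 FPKM in PBS 1 to 3. The groups did not overlap, and both were tight, with an SD of log2 CPM of 0.11 in the DOX group. The log2 fold change was -0.41 (SE 0.12), or 1.33-fold lower in DOX livers.

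Set against all tested genes, 17 had a lower log2 fold change than Cyp4a14, 40 than Cyp4a31, 74 than Cyp4a10 and 157 than Cyp4a32. The remaining 6 genes lay in the body of the distribution or above it, with 3113 genes lower than Cyp4v3 and 14215 lower than Cyp4a12b. The 4 low genes are adjacent members of the family, as described below, and 3 of them, without Cyp4a14, share transcript windows of 100 bases.

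The order of the 10 genes by mean FPKM differed between the groups. In DOX livers Cyp4v3 came first at 48.9 ± 2.64 FPKM (SD, n = 3), followed by Cyp4a10 (37.5 ± 11.9), Cyp4f15 (30.8 ± 4.14), Cyp4f13 (21.5 ± 1.99), Cyp4a14 (20.5 ± 20.6) and Cyp4f14 (7.49 ± 0.973). Cyp4a12b, Cyp4a31, Cyp4a32 and Cyp4a12a closed the order, all at a mean of 5.0 FPKM or less. Ranges were compared for genes next to each other in the order. Within DOX libraries those of Cyp4v3 and Cyp4a10, of Cyp4a10 and Cyp4f15, of Cyp4f13 and Cyp4a14, of Cyp4a14 and Cyp4f14, of Cyp4a31 and Cyp4a32, and of Cyp4a32 and Cyp4a12a overlapped. Genes further apart could overlap too, as Cyp4a14 (5.23 to 43.9 FPKM) did with Cyp4a10, Cyp4f15 and Cyp4a12b, and Cyp4a31 with Cyp4a12a. In PBS livers Cyp4a14 came first at 298 ± 56.6 FPKM (SD, n = 3), followed by Cyp4a10 (278 ± 0.718), Cyp4v3 (72.4 ± 6.73), Cyp4f15 (41.9 ± 4.92), Cyp4f13 (17.5 ± 2.81) and Cyp4a31 (15.4 ± 2.64). There the ranges of Cyp4a14 and Cyp4a10, of Cyp4f13 and Cyp4a31, and of Cyp4a12b and Cyp4a12a overlapped.

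Summed over the 10 genes, the level was 155, 221 and 151 FPKM in DOX 1 to 3, against 791, 693 and 747 FPKM in PBS 1 to 3. The Cyp4a genes made up 31.8, 48.0 and 30.1% of that sum in DOX 1 to 3, against 83.5, 79.4 and 79.7% in PBS 1 to 3. The make-up of the pool thus differed along with its size, since the 3 Cyp4f genes together stood at 59.8 ± 3.14 FPKM in DOX livers and 69.2 ± 7.23 FPKM in PBS livers (SD, n = 3 each). Cyp4a14 amounted to 0.409, 0.858 and 0.166 of the Cyp4a10 level in DOX 1 to 3, against 1.28, 0.878 and 1.06 in PBS 1 to 3, so DOX 2 came close to PBS 2 in this ratio while its level was far lower. Because reads may be split between copies, the counts of the 6 Cyp4a genes were also summed before the fit, a step added after seeing the data. The sum was 4834, 10118 and 3364 counts in DOX 1 to 3, against 73969, 59033 and 67459 counts in PBS 1 to 3, with a log2 fold change of -3.12 (SE 0.43), or 8.69-fold lower in DOX livers.

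**Figure D3:**
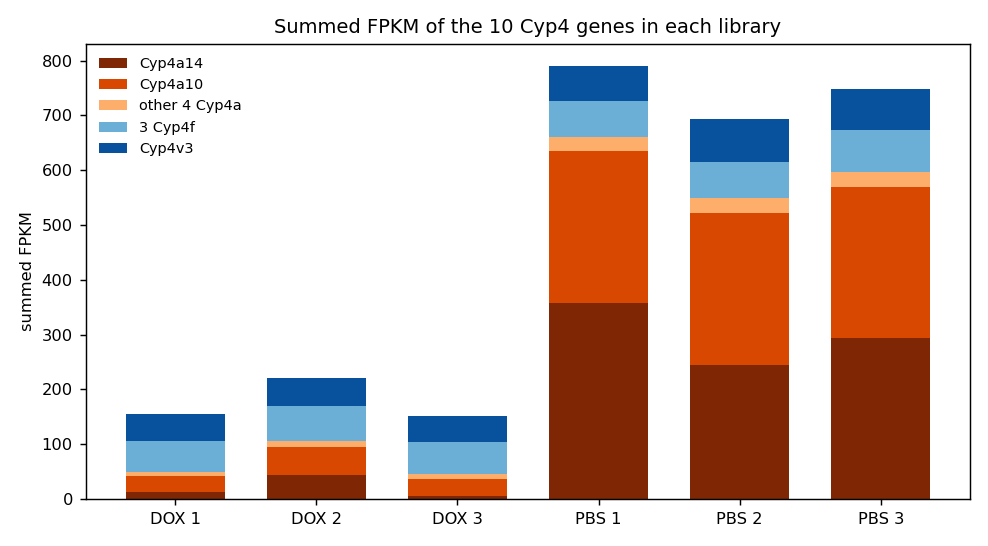
Summed FPKM of the 10 Cyp4 genes in each library, stacked by gene or gene group, with DOX libraries on the left. The Cyp4a14 and Cyp4a10 blocks shrink in DOX libraries and the Cyp4f and Cyp4v3 blocks keep much of their height.

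DOX 2 was the highest DOX library for 8 of the 10 genes, or 80.0%, against 35.7% of all tested genes. The same library was highest for 74.5% of the other PPAR-alpha targets listed below and for 64.5% of the genes that act with the Cyp4 enzymes. Ppara itself had 70.2, 125 and 76.9 CPM in DOX 1 to 3, against 165, 187 and 230.3 CPM in PBS 1 to 3. The part of Ppara level in the Cyp4 values was not tested. In bulk tissue, fewer cells of a type and less RNA per cell cannot be told apart.

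The position of the genes was set beside their values. In GRCm38.p6 Cyp4a14, Cyp4a10, Cyp4a31 and Cyp4a32 follow each other on chromosome 4, with Cyp4a12a and Cyp4a12b on one side and Cyp4b1 (chr4:115624698-115647721) on the other. The large differences therefore covered a run of neighbours and ended at Cyp4a12b and at Cyp4b1, both of which were higher in DOX livers. Cyp4b1, a lung-rich relative, rose in DOX livers to 16.0 ± 1.04 CPM, against 11.4 ± 1.33 CPM in PBS livers (SD, n = 3 each; log2 fold change 0.49, SE 0.13, edgeR adjusted p = 0.0175, higher in 3 of 3 libraries). Leaving out PBS 1, PBS 2, DOX 1 or DOX 3 gave adjusted p-values of 0.0551, 0.0763, 0.0608 and 0.0521, and the alternatives tried spanned 0.00803 to 0.0808.

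**Figure D4:**
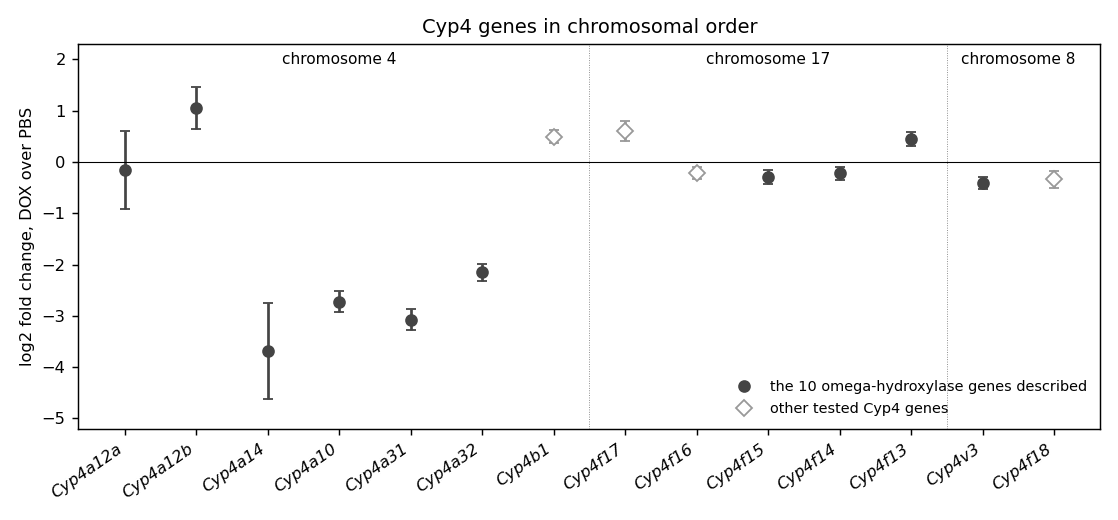
Log2 fold change of DOX over PBS with its SE for each tested Cyp4 gene, in chromosomal order. Filled points are the 10 genes described and open diamonds are other tested Cyp4 genes. The 4 lowest points, at -2.15 to -3.69, are consecutive on chromosome 4.

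The table held 7 further Cyp4 genes, of which 4 were tested. Cyp4f17 rose to 8.14 ± 1.75 CPM in DOX livers, against 5.35 ± 0.818 CPM in PBS livers (SD, n = 3 each; log2 fold change 0.60, SE 0.20, edgeR adjusted p = 0.0394). The call was lost without PBS 1 (0.084), PBS 2 (0.0526), PBS 3 (0.138), DOX 1 (0.0953) or DOX 3 (0.159), and the alternatives spanned 0.00856 to 0.248. Together with Cyp4b1 this made 2 of 4 that rose, and 0 without PBS 1, PBS 2, DOX 1 or DOX 3, and 1 without PBS 3. Cyp4f16 had 14.2 ± 0.411 CPM in DOX livers and 16.5 ± 0.2 CPM in PBS livers (edgeR adjusted p = 0.177, range 0.022 to 0.31). Cyp4f18, a leukotriene hydroxylase of mouse neutrophils, had 9.99 ± 1.17 CPM in DOX livers and 12.7 ± 2.33 CPM in PBS livers (edgeR adjusted p = 0.141, range 0.0449 to 0.372). None of the 4 fell in the main edgeR fit or in DESeq2, and 0 did at an unadjusted p under 0.05 in that edgeR fit. When libraries were scaled by their totals alone, edgeR called Cyp4f16 (adjusted p = 0.0352) and Cyp4f18 (0.0449) lower. Cyp4f37, Cyp4f39 and Cyp4x1 had at most 11 counts in any library and were not tested.

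Genes around the clusters were examined within 500 kb of the outermost Cyp4a and Cyp4f genes. Of 14 tested neighbours of the Cyp4a cluster, 1 rose and 3 fell, with a median log2 fold change of -0.16. The gene that rose was Uqcrh, a subunit of respiratory complex III, at 0.54 (edgeR adjusted p = 0.0139). Those that fell were Stil, a centriole assembly gene, at -1.57 (0.0143), Nsun4, a mitochondrial RNA methyltransferase, at -0.53 (0.0187), and Rad54l, a recombination gene, at -1.54 (0.0398). Stil and Rad54l stood at low levels, Stil at 0.535 CPM in DOX livers and 1.6 CPM in PBS livers, Rad54l at 0.349 and 1.02 CPM. Stil lost its call in 4 of the alternatives tried (adjusted p up to 0.0608) and Rad54l in 9 (up to 0.174). Uqcrh lost its call without PBS 1, PBS 3, DOX 1 or DOX 3, leaving 0 that rose, while 0 fell when PBS 2 was left out and 1 when DOX 1 or DOX 3 was. The nearest tested neighbours outside the family were Pdzk1ip1 (chr4:115088708-115093894) and Efcab14 (chr4:115737716-115777393). Cyp4x1, which was not tested, and Cyp4b1 lie between them and the Cyp4a genes. Pdzk1ip1 and Efcab14 had log2 fold changes of -0.38 (edgeR adjusted p = 0.263, range 0.0731 to 0.656) and -0.28 (0.0838, range 0.0126 to 0.253). Differences of the size seen in the Cyp4a run were thus not measured in these nearest tested genes outside the family.

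Of 18 tested neighbours of the Cyp4f cluster, 6 rose and 0 fell in edgeR's test, with a median log2 fold change of 0.19. At an unadjusted p under 0.05, 1 of them was lower, and DESeq2 called 0 lower. The nearest on each side were Pglyrp2, a peptidoglycan amidase of liver, at 206 ± 15.8 CPM in DOX livers and 153 ± 17.0 CPM in PBS livers (log2 fold change 0.43, edgeR adjusted p = 0.0207), and the zinc finger gene Zfp472 at 0.74 (0.0352). Akap8l, Zfp763 and Zfp870 rose by 0.77 (0.00922), 1.09 (0.011) and 0.72 (0.0178) on the log2 scale. The count that rose was 3 without PBS 3 and 2 without DOX 3, and 2 when libraries were scaled by their totals alone. Pglyrp2 lost its call without PBS 1 (0.0982), PBS 2 (0.0844) or DOX 1 (0.0658), and its adjusted p ranged from 0.00536 to 0.107. Zfp472 lost it without PBS 1 (0.0859), PBS 3 (0.12), DOX 1 (0.129) or DOX 3 (0.0755), within a range of 0.0154 to 0.129.

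Promoter sequence was at hand for part of the family. RefSeq windows from 250 bases before to 50 after the transcription start (GRCm38.p6) matched 5 of the 10 genes with 8 windows, 4 of them for Cyp4f14. Among the Cyp4a genes only Cyp4a32 had a window, so Cyp4a10, Cyp4a14, Cyp4a31, Cyp4a12a and Cyp4a12b were not searched. Cyp4a32 is shown because it belongs to the low run and Cyp4f13 because it lay higher. Capitals mark matches to the motifs searched, and both sequences are 5′ to 3′ on the strand of the gene.
Cyp4a32 (chr4:115600688-115600987, plus strand): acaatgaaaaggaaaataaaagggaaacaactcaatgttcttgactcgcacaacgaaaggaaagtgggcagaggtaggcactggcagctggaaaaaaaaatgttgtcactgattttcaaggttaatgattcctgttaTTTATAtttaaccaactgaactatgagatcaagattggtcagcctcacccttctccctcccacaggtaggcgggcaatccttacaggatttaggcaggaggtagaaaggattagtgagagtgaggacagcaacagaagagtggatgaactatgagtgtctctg
Cyp4f13 (chr17:32947312-32947611, minus strand): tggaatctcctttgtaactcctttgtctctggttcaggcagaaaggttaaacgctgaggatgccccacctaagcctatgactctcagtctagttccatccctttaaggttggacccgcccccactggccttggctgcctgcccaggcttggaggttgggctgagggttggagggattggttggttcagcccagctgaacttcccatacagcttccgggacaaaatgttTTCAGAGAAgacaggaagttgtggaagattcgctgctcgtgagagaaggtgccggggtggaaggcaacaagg
Motifs were searched on both strands. The nuclear receptor hexamer AGGTCA was found in 0 of the 8 windows and in 16.3% of 32851 windows of all genes, and its repeat with a single base between, AGGNCANAGGNCA, in 0 of 8 and 0.381%. The hexamer TATAAA occurred in the Cyp4a32 window, read on the opposite strand, and in 13.6% of all windows. The palindrome TTCNNNGAA, which STAT factors bind, occurred in the Cyp4f13 window and in 8.3% of all windows. A match is a description of these letters, and a window without a match says nothing about the factor. The Cyp4a32 window had a GC content of 42.7% with 3 CpG dinucleotides, that of Cyp4v3 55.3% with 17, and the median window 52.7% with 7.

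Genes that act with Cyp4 enzymes in omega-oxidation mostly fell. Of 31 tested genes for electron donors, alcohol and aldehyde dehydrogenases, acyl-CoA synthetases, peroxisomal transporters and peroxisomal chain shortening, 18 fell and 4 rose, with a median log2 fold change of -0.46 beside -0.01 for all genes. Ehhadh, the bifunctional enzyme of peroxisomal beta-oxidation, fell to 203 ± 53.9 CPM in DOX livers, against 1460.4 ± 245 CPM in PBS livers (SD, n = 3 each; log2 fold change -2.85, SE 0.21, edgeR adjusted p = 4.36e-05). Aldh3a2, the aldehyde dehydrogenase that oxidises fatty aldehydes to acids, fell to 153 ± 16.5 CPM, against 416 ± 39.0 CPM in PBS livers (log2 fold change -1.44, edgeR adjusted p = 7.66e-05). Crot, which makes acylcarnitines for export from peroxisomes, fell, with a log2 fold change of -1.28 (edgeR adjusted p = 0.000572). For these 3 genes every DOX library lay below every PBS library.

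Of the 4 listed electron donors of the P450 reaction 2 rose. Por, the reductase that passes electrons to microsomal P450 enzymes, rose to 1395 ± 138 CPM in DOX livers, against 951 ± 168 CPM in PBS livers (log2 fold change 0.55, SE 0.15, edgeR adjusted p = 0.0199). Cyb5a, its cytochrome partner, rose by 0.54 (adjusted p = 0.0257). Cyb5b and Cyb5r3 were not called, with log2 fold changes of -0.08 (edgeR adjusted p = 0.683) and -0.22 (0.279). Adh5, the glutathione-dependent alcohol dehydrogenase, and Nudt19, a peroxisomal CoA hydrolase, also rose, by 0.44 and 0.28. These 4 calls were fragile. They numbered 0 without PBS 1, 2 without PBS 2, PBS 3 or DOX 1, 1 without DOX 3, and 0 when libraries were scaled by their totals alone. The adjusted p of Por ranged from 0.00138 to 0.118 and exceeded 0.05 without PBS 1 (0.0863), PBS 2 (0.088) or DOX 3 (0.0722).

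PPAR-alpha and its partners were followed in 21 tested genes, of which 2 fell and 5 rose. Ppara fell to 90.7 ± 29.8 CPM in DOX livers, against 194 ± 33.1 CPM in PBS livers (log2 fold change -1.10, SE 0.22, edgeR adjusted p = 0.0077), and the call held in each alternative tried (adjusted p 1.88e-06 to 0.0256). Nr1h3, the oxysterol receptor LXR-alpha, fell by 0.36 (adjusted p = 0.0227), a call lost without PBS 2 (0.0691), PBS 3 (0.0957) or DOX 3 (0.0842). The 5 that rose were Rxra, the partner with which PPAR-alpha binds DNA, at 0.41 (adjusted p = 0.0303), the coactivators Ncoa1 at 0.46 (0.012) and Ppargc1b at 1.44 (0.0331), the corepressor Nrip1 at 0.42 (0.0449), and Hnf4a, a hepatocyte nuclear receptor, at 0.42 (0.0292). Leaving out PBS 1 left 2 that rose, PBS 2 or DOX 3 left 1 and PBS 3 left 3. Of those that fell, 1 was left without PBS 2, PBS 3 or DOX 3. Rxra ranged from 0.00603 to 0.168 in adjusted p over the alternatives, Ncoa1 from 0.00488 to 0.119, Nr1h3 from 0.00249 to 0.0957 and Hnf4a from 0.00453 to 0.137.

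Listed PPAR-alpha targets outside the Cyp4 family shared the direction of the Cyp4a run. Of 47 tested, 35 fell, with a median log2 fold change of -0.91, and 0 rose in edgeR's test. At an unadjusted p under 0.05, 3 were higher, and DESeq2 called 1, as did edgeR without DOX 1 or without DOX 2. The acyl-CoA thioesterase Acot1 fell to 5.41 ± 1.38 CPM in DOX livers, against 56.3 ± 1.89 CPM in PBS livers (log2 fold change -3.38, edgeR adjusted p = 1.2e-06), and Acot3 and the pantetheinase Vnn1 fell as well, with log2 fold changes of -2.58 and -3.06. The 4 low Cyp4a genes, at -2.15 to -3.69, were similar in size to these 3 targets, which had the smallest p of the list. All 4 lay well below the list median of -0.91. Genes of this list and of the omega-oxidation list overlap, among them Ehhadh, and the lists were drawn up with results of these data known.

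**Figure D5:**
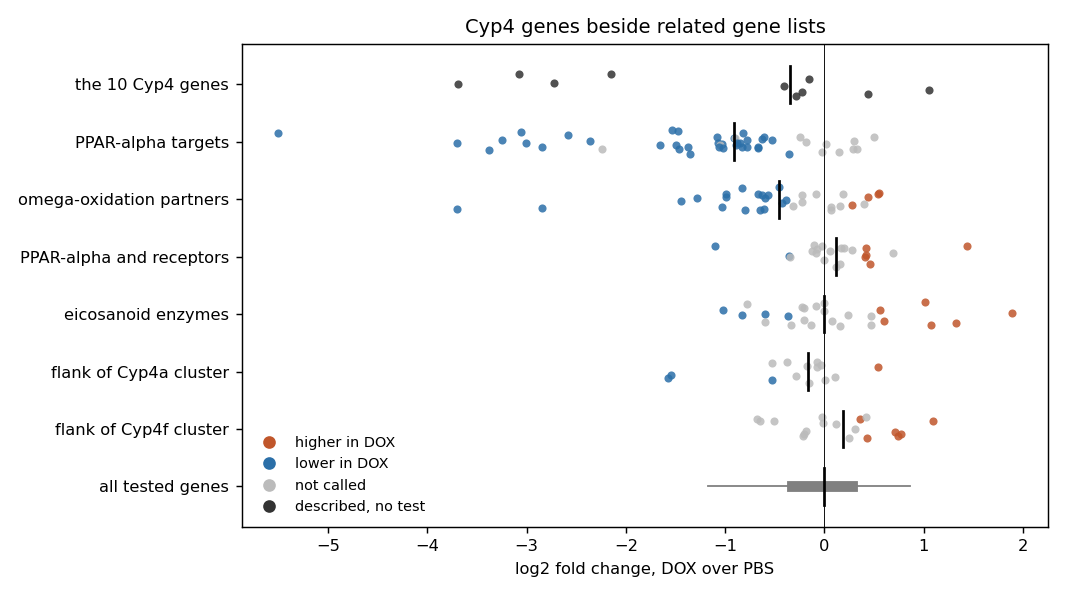
Log2 fold change of DOX over PBS for the 10 Cyp4 genes and for each tested gene of the related lists, with a vertical bar at the median. Colours give the edgeR call, except for the 10 Cyp4 genes, which are shown without a test, and the grey box and line for all tested genes span the middle quartiles and the 5th to 95th percentiles. The medians are -0.91 for PPAR-alpha targets and -0.46 for omega-oxidation partners, against -0.01 for all genes.

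Eicosanoid metabolism, in which Cyp4f enzymes inactivate leukotrienes, showed no common direction. Of 25 tested genes 6 rose and 4 fell, with a median log2 fold change of -0.01, and 2 fell without PBS 3 or DOX 1. The arachidonic acid epoxygenase relatives Cyp2c54, Cyp2c50 and Cyp2c29 rose by 1.89, 1.01 and 1.07 on the log2 scale (edgeR adjusted p = 1.54e-05, 0.00213 and 0.00278). The epoxygenase Cyp2j5 fell, with a log2 fold change of -1.02 (0.00797), and Cyp2c23, at -0.34 (0.202), was not called. The others that fell were the microsomal epoxide hydrolase Ephx1 at -0.83 (0.00552), the phospholipase Pla2g6 at -0.60 (0.0167) and the prostaglandin dehydrogenase Hpgd at -0.37 (0.0345). Ptgr3, a prostaglandin reductase, rose to 152 ± 14.4 CPM in DOX livers, against 103 ± 2.52 CPM in PBS livers (log2 fold change 0.56, edgeR adjusted p = 0.00336).

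Genes with a known sex bias in mouse liver were examined because Cyp4a12a is male-biased and Cyp4a14 is female-biased there. Of 18 tested male-biased genes 7 fell and 1 rose. Nudt7, a peroxisomal CoA hydrolase, Mup3, a major urinary protein, and the complement gene C6 fell, with log2 fold changes of -0.67, -2.96 and -0.79 (edgeR adjusted p = 0.00228, 0.0023 and 0.00235), and Cyp2d9 rose by 0.65 (0.00594). Leaving out PBS 3 left 4 that fell, and 2 rose without DOX 3. Of 26 tested female-biased genes 5 rose and 6 fell. The estrogen sulfotransferase Sult1e1 rose to 204 ± 59.5 CPM in DOX livers, against 4.35 ± 1.74 CPM in PBS livers (log2 fold change 5.55, edgeR adjusted p = 0.000384). Acot3, also on the target list, and Rtn4 fell, with log2 fold changes of -2.58 and -0.64. Without PBS 1 or PBS 3, 3 fell. The median log2 fold change was -0.44 for the male-biased list and 0.36 for the female-biased list, against -0.01 for all tested genes. The male-biased list thus leaned lower, while the female-biased list had calls in both directions. Cyp4a14 lay with the female-biased genes that were lower.

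Markers of hepatocytes and of other cells were set beside the Cyp4 values. Of 16 tested hepatocyte markers 9 rose, among them Tat, Serpina1c, Serpina1a and Arg1, at log2 fold changes of 1.43, 0.82, 0.93 and 0.84 (edgeR adjusted p = 0.000384, 0.00123, 0.00126 and 0.00126), and their summed level was 113209.8 to 135742 CPM in DOX libraries and 101968 to 109688 CPM in PBS libraries. Most of that sum was Alb, the albumin gene, at 82253 ± 10944 CPM in DOX livers and 71321 ± 1185 CPM in PBS livers (SD, n = 3 each; edgeR adjusted p = 0.376). Of the 16, edgeR and DESeq2 called 0 lower, with 1 lower at an unadjusted p under 0.05, 1 called without PBS 2 or without DOX 2, and 2 when libraries were scaled by their totals alone. Apob, Ttr, Cyp2e1 and Glul had log2 fold changes of -0.29, -0.40, -0.34 and -0.61 without being called (edgeR adjusted p = 0.32, 0.113, 0.138 and 0.216). The part of hepatocyte share in the Cyp4 values was not tested. Kidney tubule markers, of a tissue rich in Cyp4a, summed to 0.476 to 0.678 CPM in DOX libraries and 0.0456 to 0.351 CPM in PBS libraries, near 0. Of that list only Slc12a3 was tested (edgeR adjusted p = 0.192).

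Markers of other liver cells were followed too, beside 13.5% of all tested genes called higher and 14.0% called lower. Of 12 stellate cell markers 7 fell and 1 rose, with a summed level of 969 to 1344 CPM in DOX libraries and 1647 to 1999.9 CPM in PBS libraries, and 4 fell when PBS 1 was left out. Col3a1, Col1a2 and Col1a1, fibrillar collagen chains, fell, with log2 fold changes of -1.47, -1.12 and -1.46 (edgeR adjusted p = 0.000395, 0.00175 and 0.00263) and Hhip rose by 1.39 (0.00249). Of 10 endothelial markers 5 rose (3 without PBS 2), among them Ptprb, Pecam1, Tek and Stab1, with sums of 348 to 418 CPM in DOX libraries and 273 to 317 CPM in PBS libraries. Of 10 bile duct markers 4 fell (2 without PBS 1 or PBS 2), namely Sox9, Cftr, Muc1 and Krt23, with sums of 559.9 to 805 CPM in DOX libraries and 807 to 978 CPM in PBS libraries. Most of that sum was Spp1, which is also on the macrophage list. It had 533 ± 105 CPM in DOX livers and 717 ± 72.2 CPM in PBS livers (edgeR adjusted p = 0.0612). Of 12 macrophage markers Vsig4 and Marco were among 3 that rose, and Ccr2 and Cd5l fell (1 of them without PBS 1 or PBS 2), with sums of 1976 to 2543 CPM in DOX libraries and 1958 to 2179 CPM in PBS libraries. Of 8 neutrophil markers Ngp and Retnlg rose and Csf3r and Cxcr2 fell, with sums of 329.6 to 514 CPM in DOX libraries and 366 to 405 CPM in PBS libraries. Most of that sum was Lcn2, at 362 ± 118 CPM in DOX livers and 331 ± 31.4 CPM in PBS livers (edgeR adjusted p = 0.684). Ngp averaged 0.749 CPM in DOX livers and 0.0918 CPM in PBS livers, and Retnlg 2.38 and 0.598 CPM. Of these neutrophil genes 0 rose without DOX 1, 1 rose and 1 fell without PBS 1, PBS 3 or DOX 3, and the groups overlapped for Retnlg (adjusted p 0.001 to 0.15 over the alternatives). The lymphocyte list summed to 1.84 to 4.18 CPM in DOX libraries and 5.22 to 7.76 CPM in PBS libraries, and Nkg7 alone of 7 tested fell, a call lost without PBS 1 (adjusted p = 0.0813), PBS 3 (0.0524), DOX 1 (0.0654) or DOX 2 (0.0512). The part of these cell types in the Cyp4 values was not tested.

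The genes whose pattern over the 6 libraries was most like that of Cyp4a14 and Cyp4f14 were ranked by Pearson r of log2 CPM among 8526 genes averaging 10 CPM or more. For Cyp4a14 they were Nudt7, Col4a5 and Rgn (0.997 each), then Pctp and Ccnd1 (0.996 each). For Cyp4f14 they included Sgk3 (0.982), Septin11 (0.973), Slc16a1 (0.971) and Foxn2 (0.968). The 6 points of each correlation fall into the groups being compared and share library depth, so these values describe likeness in these libraries and carry no test.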

How the data were processed

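Per the labels' protocols, liver RNA was made into libraries with an mRNA kit. The authors deposited raw counts per gene symbol and FPKM values for the same 6 libraries. The deposited FPKM were the counts divided by gene length and by the library total, since the implied length was whole within 0.01 bases for 99.9% of genes. The submitters' processing notes list the builds GRCm38, mm10 and hg38. How reads were aligned and counted, with what treatment of strand and of reads matching several genes, was not given in the sources used here.

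Samples were grouped by their labels. Counts were tested with edgeR 4.0.16 in R 4.3.3 (quasi-likelihood, TMM, filterByExpr with a minimum count of 10 and total of 15), DOX against PBS, with Benjamini-Hochberg adjustment over 14681 genes and a threshold of 0.05. FPKM give levels between genes; CPM and fold changes come from the fit. Same-group libraries differed by chi-square values of 30.0 to 81.3 per degree of freedom, so none was taken as a copy. Counting error takes no account of PCR duplicates. The test was run on simulated counts of this comparison (14681 genes), where it found 71% of 100 genes set to 2-fold and 91% of 100 set to 4-fold, and 5.26% of calls were false. Only those genes were changed, equally up and down, whereas 27.5% of tested genes were called in the data. The simulated rates therefore need not hold for the data. Alternatives were other scalings and filters, DESeq2 1.42.0, limma 3.58.1 on log2(FPKM + 1) and log2(FPKM + 0.1), a replicate block and leaving out each library.

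The members, lists and tests were chosen with earlier results of these data known. Lists covered omega-oxidation partners, PPAR-alpha partners and targets, eicosanoid genes, sex-biased and Y-linked genes, genes flanking the clusters, and markers of hepatocytes, kidney, bile duct, neutrophils, macrophages, stellate, endothelial and lymphoid cells. Named were the 10 members, every other Cyp4 gene, Bche, up to 4 called genes of smallest p per list (2 where none was called), the nearest tested flanking genes and the 5 genes most alike Cyp4a14 and Cyp4f14. Por, Cyb5a, Cyb5b, Cyb5r3, Adh5, Nudt19, Rxra, Ppargc1b, Nrip1, Cyp2j5, Cyp2c23, Ephx1, Pla2g6, Hpgd, Alb, Apob, Ttr, Cyp2e1, Glul, Spp1 and Lcn2 fall outside this rule and were named after their values were seen. Some genes that the rule picks are not reported here. Of the Y-linked genes 4 were tested and 0 were called by edgeR (1 at an unadjusted p under 0.05), Eif2s3y at an adjusted p of 0.06 and Uty at 0.307. Sequences came from RefSeq (GRCm38.p6) and GENCODE M21.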

Additional observations from a re-analysis of the deposited data

How the results depend on the processing

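The sign of the log2 fold change held under every alternative run for 9 of the 10 Cyp4 genes, within -4.92 to -3.24 for Cyp4a14, -3.02 to -2.59 for Cyp4a10, -3.37 to -2.64 for Cyp4a31 and -2.31 to -1.75 for Cyp4a32. Cyp4a12a ranged from -1.49 to 0.28. Scaling by library size alone moved the median of all genes to -0.16 on the log2 scale, and with it the calls: 1028 genes were higher and 3429 lower, against 1975 and 2062. limma called 917 higher and 3202 lower on log2(FPKM + 1), 948 and 3227 on log2(FPKM + 0.1), and 537 higher with no filter.

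Under library size alone, limma on log2(FPKM + 1), limma on log2(FPKM + 0.1) and limma with no filter, in that order, other Cyp4 genes gave 0, 1, 1 and 0 higher and 2, 1, 1 and 1 lower, and omega-oxidation partners gave 0, 0, 0 and 0 higher. PPAR-alpha partners gave 1, 1, 1 and 0 higher. The Cyp4a flank gave 0, 0, 0 and 0 higher, with 5 lower under the first 3 of these, and the Cyp4f flank gave 2, 1, 1 and 0 higher and 2, 1, 1 and 1 lower. Library size alone gave 7 lower eicosanoid genes, and limma with no filter gave 0 higher male-biased and 3 higher female-biased genes. DESeq2 gave 1 higher PPAR-alpha target and 2 higher male-biased genes.

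Same-numbered libraries did not deviate together more than others (correlations of 0.0861, -0.0731 and -0.134, against -0.132 to 0.192 for other pairs). Deviations from means of 3 libraries cannot exclude a pairing by number, and the labels used here give none. With the replicate number as a block, 1 other Cyp4 gene, 2 omega-oxidation partners, 1 PPAR-alpha target and 8 female-biased genes were higher, and 1 PPAR-alpha partner was lower.

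Leaving out each library gave 1208 to 2440 genes higher and 1305 to 2348 lower. The ranges were 0 to 2 higher for other Cyp4 genes, 0 to 4 higher and 13 to 18 lower for omega-oxidation partners, 1 to 4 higher and 1 to 3 lower for PPAR-alpha partners, and 0 to 1 higher and 30 to 37 lower for PPAR-alpha targets. They were 5 to 6 higher and 2 to 5 lower for eicosanoid genes, 1 to 2 higher and 4 to 8 lower for male-biased genes, 4 to 5 higher and 3 to 5 lower for female-biased genes, 0 to 1 higher and 0 to 3 lower for the Cyp4a flank, and 2 to 6 higher for the Cyp4f flank. The cause of these shifts was not tested. Counting error weighs most on Cyp4a12a, with 29 to 171 counts in DOX libraries and 67 to 164 in PBS libraries, on Cyp4a32 and Cyp4a31, with 99 to 121 and 116 to 205 counts in DOX libraries, and on Cyp4a12b, with 108 counts in PBS 2.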
